A study of Mus musculus with 34 samples.

Results

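Hearts of vehicle-treated mice taken 28 days after an intratracheal instillation were compared with hearts of vehicle-treated mice taken 1 day after it, across all genes measured. The comparison rests on 12 of the 34 arrays of the series, 6 at day 1 and 6 at day 28, chosen by their labels alone. The 12 animals were female C57BL/6 mice, with no genetic alteration in the labels, that had been bought at 5 to 6 weeks of age. The labels call these groups control, and give as the medium of the particles in the treated groups saline (0.9% NaCl in purified water) with 10% by volume of cell-free lung lavage fluid from mice of the same strain, of which 40 µl were instilled with 150 µl of air behind them. The other arrays came from vehicle mice at day 3 and from mice given 162 µg of the carbon black Printex 90 and killed at day 1, day 3 or day 28. The series holds no group without an instillation, so these hearts show time after the procedure and not the procedure itself. The days since instillation and the age of the animals cannot be told apart, and the time of day of collection was not given in the sources used here.

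Cardiac muscle cells live mainly on the oxidation of fatty acids and hold many mitochondria and sarcomeres, and the heart wall also holds vessels, fibroblasts, resident macrophages and patches of fat. Immediate early genes, such as the nuclear receptor gene Nr4a1 and the AP-1 family, are switched on within minutes of a stimulus and fall again soon after it. The liver makes most plasma proteins, among them albumin, fibrinogen and apolipoproteins, and their transcripts are usually scarce in heart muscle.

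Each array set RNA from a random section of 1 heart that contained both ventricles, labelled with Cy5, against a commercial universal mouse reference RNA, labelled with Cy3. Values are log2 ratios of heart over reference, so that a difference of 1 between days is a 2-fold change of that ratio. The share of spots that the scanner software called above background in the heart channel lay between 42.8% and 63.7% over the 12 hearts, and no spot of that channel was saturated. All 8 markers of ventricular muscle that were checked, such as the myosin gene Myh6 and troponin T (Tnnt2), were well above background on all 12 arrays, with log2 ratios between 1.12 and 7.04. Replicate numbers follow the order of the samples, name an array and pair no animals. The labels do not say whether the mice were housed or treated together. Unless stated otherwise, p-values rest on the spread between hearts within the 6 groups of all 34 arrays, carbon black and day 3 included. Replicate 2 of both days, day 1 replicate 5 and day 28 replicate 6 stood apart from the other vehicle hearts. In the 17 gene lists described with members, medians that 1 of them moved by over 1.5 times are given without it as well. For further lists a range over single arrays left out is given.

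No gene passed the test for a difference between the vehicle hearts of day 28 and day 1. Of 19807 genes tested with limma, 0 had a Benjamini-Hochberg adjusted p under 0.05 (0% of genes tested, lowest adjusted p = 0.99993). At an unadjusted p under 0.05 there were 234 genes (1.18%), 135 higher and 99 lower at day 28, where evenly spread p-values would give 990. The genes split evenly around 0, with 50.86% above it and a median log2 difference of 0.0023.

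On the scale of the corrected ratios, the arrays bounded most differences closely. The background correction used an offset of 50, which draws ratios of dim spots and their intervals toward 0. The median SE of a difference was 0.15 on the log2 scale, and the median SD between animals was 0.24 at day 1 and 0.23 at day 28. For 18881 genes (95.3%) the 95% confidence interval of the difference lay within 2-fold in either direction, and for 77.6% within 1.5-fold. Among the 12732 genes well above background on all 12 arrays the share within 2-fold was 95.6%. The estimate exceeded 2-fold in 41 genes, 5 of them higher at day 28 and 36 lower. The higher ones were Nr4a1, Atf3, Fos at 1.33, Pdk4, an inhibitor of glucose oxidation, at 1.02, and a gene known by accession only. In 23 genes (0.116%) the arrays of both days did not overlap, with 2 higher (0.0101%) and 21 lower (0.106%) at day 28. The 2 higher ones were Fkbp5 and a gene known by accession only. By the exact count of orderings, 6 against 6 values without a difference separate fully with a two-sided probability of 0.00216. That is a larger share than the 0.116% seen. Fos, Pdk4 and the genes known by accession were picked after their values were seen.

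**Figure D1:**
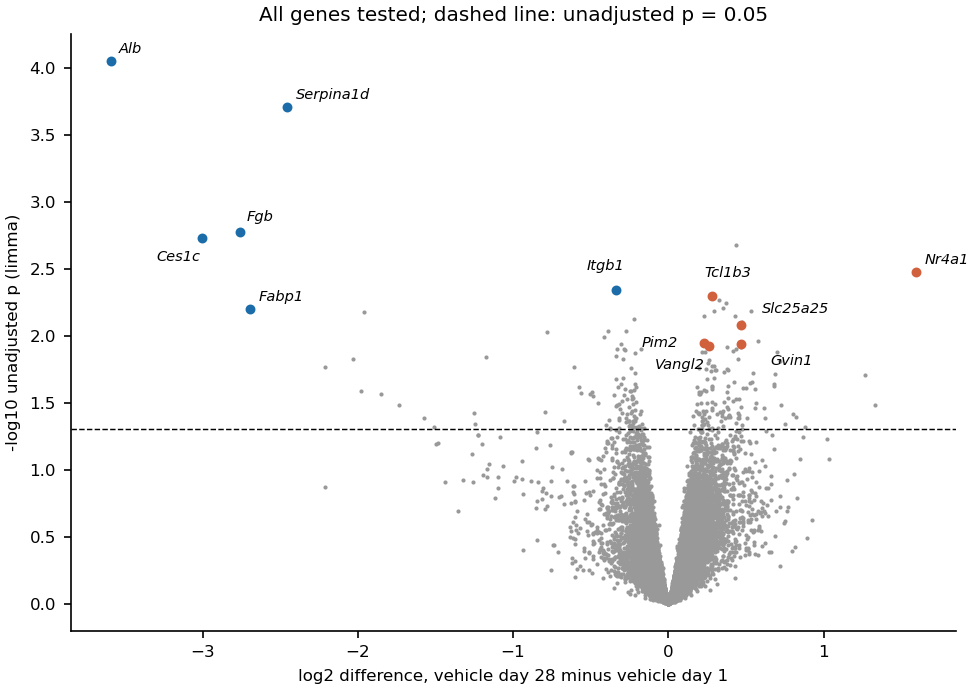
Each point is 1 of 19807 genes, with the log2 difference of vehicle day 28 minus vehicle day 1 on the horizontal axis, -log10 of the unadjusted limma p on the vertical axis and a dashed line at the unadjusted threshold. Alb lies farthest left at -3.59 and Nr4a1 farthest right at 1.59, and no gene passes the adjusted threshold.

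The lowest differences belonged to transcripts of plasma and liver proteins. Alb, which encodes serum albumin, ranged at day 1 from 1.92 through a median of 4.03 to 4.61 on the log2 ratio scale, and at day 28 from -0.020 through 0.11 to 0.66. The lowest day 1 heart lay above the highest day 28 heart. The difference was -3.59 ± 0.80 (SE, n = 6 and 6; limma, unadjusted p = 8.88e-05, adjusted p = 0.99993). Alb was well above background on 6 of 6 arrays at day 1 and on 1 of 6 at day 28, so its day 28 values lie at the limit of measurement. When the fit used the 12 arrays alone, Alb passed with an adjusted p of 0.00239 (limma) and was the 1 gene to do so. With the spread of all 34 arrays, in which the vehicle hearts of day 3 ranged from 0.015 to 5.28, it did not. Over the other alternatives tried, the lowest adjusted p of any gene was 0.288 or higher.

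The region before the annotated start of Alb is shown because this gene had the largest estimated difference of the genes tested, at a day 28 level that 1 of 6 arrays measured. It is taken from the RefSeq promoter table on build GRCm38.p6, chr5:90460620-90460869, plus strand, and its last base is the one before the start. Capitals mark GTTAAT, part of the binding motif of the liver factor HNF1, searched on both strands.
Alb: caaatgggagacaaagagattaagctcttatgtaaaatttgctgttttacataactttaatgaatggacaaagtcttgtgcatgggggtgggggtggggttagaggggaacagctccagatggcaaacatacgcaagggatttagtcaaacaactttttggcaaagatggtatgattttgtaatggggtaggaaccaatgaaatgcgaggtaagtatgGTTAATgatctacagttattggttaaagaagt
The match begins 32 bases before the start. Of 32851 such windows of 250 bases 6.4% hold these letters, as do 2 of the 7 measured liver marker genes with a window (28.6%). A gene counts if any of its windows holds them, so the shares are of unlike units.

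Other liver transcripts had a similar distribution. Serpina1d, an alpha-1-antitrypsin gene with close paralogs that its probe may not separate, ranged from 1.46 through a median of 3.19 to 3.72 at day 1 and from 0.080 through 0.33 to 1.29 at day 28. Fgb, the fibrinogen beta chain, ranged from 1.36 through a median of 2.62 to 5.00 at day 1 and from -0.079 through 0.062 to 0.69 at day 28. Fgb was well above background on 3 of 6 arrays at day 28. In neither gene did the days overlap, and the differences were -2.46 ± 0.58 and -2.76 ± 0.80 (limma, unadjusted p = 0.000197 and 0.00167). Ces1c, a carboxylesterase secreted into plasma, ranged from 1.00 through a median of 3.65 to 4.69 at day 1 and at day 28 was on no array well above background. Its measured difference was -3.00 ± 0.88 (limma, unadjusted p = 0.00188), and its mean level was at least 7.43-fold lower at day 28. Such a bound sets the mean of the bright group against, for each dim array, the higher of the lowest signal that counts as measured and the probe's own. It leaves out the spread between hearts, and the 95% confidence interval of the Ces1c difference ran from -4.80 to -1.20. A second probe of Ces1c, which has close paralogs, gave -0.64.

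Fabp1, the liver fatty acid-binding protein, lay between 3.74 and 4.11 on 4 day 1 arrays and at 0.79 and 0.56 on replicates 2 and 5. Its day 28 values lay between -0.13 and 0.93, so the ranges overlapped, with 2 of 6 arrays well above background at day 28 and a difference of -2.69 ± 0.92 (limma, unadjusted p = 0.00632). Apoa2, a protein of high-density lipoprotein, and Ambp, the precursor of alpha-1-microglobulin, were on no array well above background at day 28. Their mean levels were at least 3.68-fold and at least 3.53-fold lower there, bounds that leave out the spread between hearts. The 95% confidence intervals of the differences ran from -3.33 to -0.59 for Apoa2 and from -3.70 to -0.25 for Ambp. Ambp was well above background on 4 of 6 arrays at day 1, and its days overlapped. The same 2 day 1 hearts, replicates 2 and 5, had the lowest day 1 values of both, 0.40 and 0.42 for Apoa2 and 0.043 and 0.51 for Ambp. None of these genes passed after adjustment (limma, adjusted p = 0.99993).

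Liver markers were also scored on each array, as the mean deviation of their log2 ratios from the median of all 34 arrays. Of 12 markers 9 passed the filter on dim probes, with 8 below 0 and 1 above it, and a median log2 difference of -1.85 against 0.0023 over all genes. None passed the test, 5 had an unadjusted p under 0.05 in the lower direction (0.5% of all genes) and 4 had no overlap (0.116% of all genes). A dim marker enters the fit through the groups in which it is high, so these counts describe where the transcripts were measurable. Transferrin (Trf), which other tissues also make, had 0.13 and the liver glycoprotein gene Ahsg -0.012, both named after their values were seen.

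The score was high on 4 of the 6 day 1 hearts. It was 1.82, 2.32, 1.66 and 1.59 in day 1 replicates 1, 3, 4 and 6, against 0.46 in replicate 5 and -0.22 in replicate 2. All 6 day 28 hearts lay between -0.59 and 0.11. The vehicle hearts of day 3 lay between -0.23 and 4.14 with a median of 1.32. The score was high in some carbon black hearts too, with a median of 0.90 and a highest value of 2.61 at day 3. At day 1 these hearts had a median of -0.14 and a highest value of 1.1, and at day 28 a median of -0.10. The same markers differed between day 28 and day 1 there by a median of -0.090. In a tissue section, fewer cells of a type and less RNA per cell cannot be told apart. Where the liver transcripts in these heart samples came from was not tested. Alb differed between the vehicle and the carbon black change with an unadjusted p of 0.024 and did not pass after adjustment (limma).

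**Figure D2:**
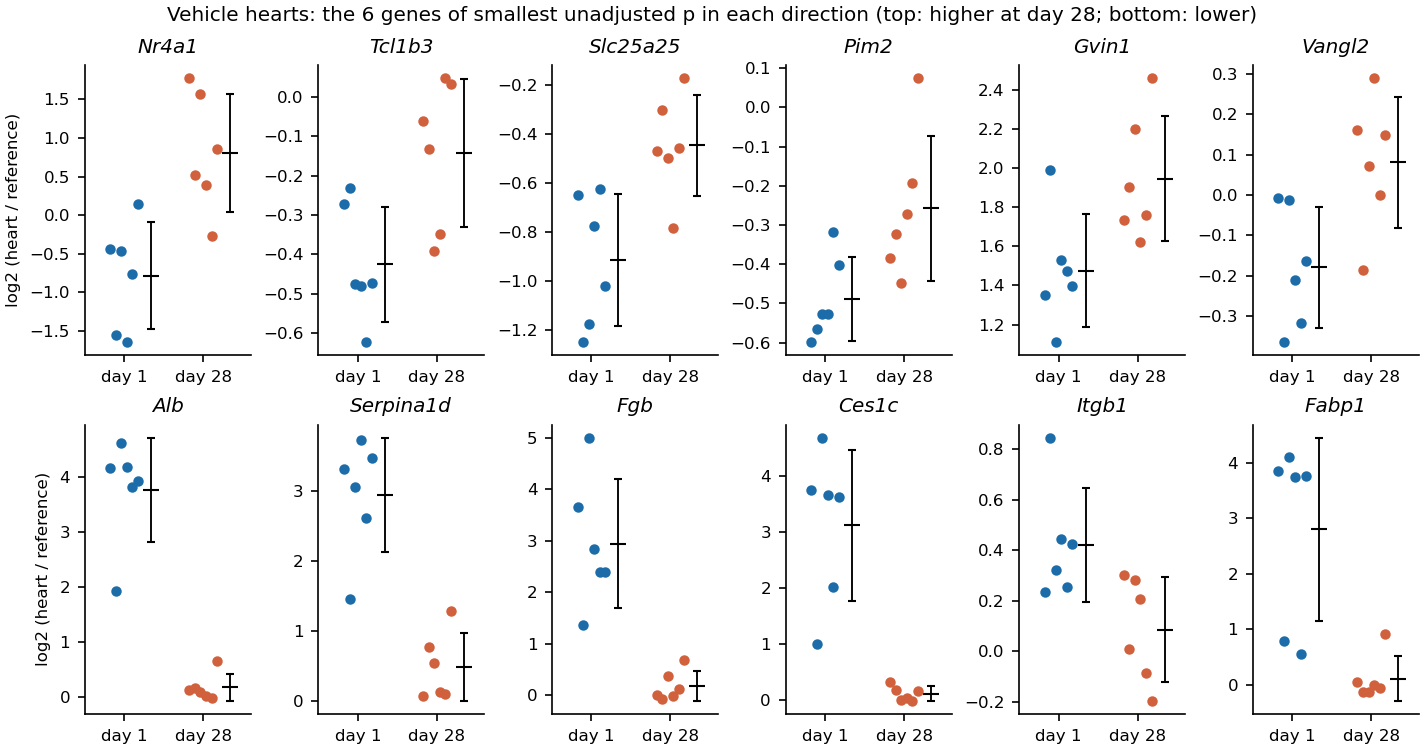
Each panel shows 1 gene as the log2 ratio of heart over reference in 6 vehicle hearts at day 1 and 6 at day 28, with bars for mean ± SD and axes that differ between panels. The medians of Alb, Serpina1d, Fgb, Ces1c and Fabp1 at day 28 lie between -0.025 and 0.33, and the groups overlap in the 6 genes with a positive difference.

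Among acute phase genes, whose products the liver raises during inflammation, the lower members were plasma proteins of the kind described above. Of 21 genes 20 were measured, 16 below and 4 above 0, with a median of -0.12, which was -0.070 without day 28 replicate 2, -0.21 without day 28 replicate 6 and -0.19 without day 1 replicate 2. None passed, and 2 had an unadjusted p under 0.05 in the lower direction (0.5% of all genes), the fibrinogen chains Fgb and Fgg. Fgg was on no array well above background at day 28 and was at least 4.01-fold lower there. Hemopexin (Hpx), which binds heme in plasma, had a difference of -1.23 ± 0.62 without overlap (limma, unadjusted p = 0.0549). The serum amyloid gene Saa2, which has a close paralog, was at 3.07 on day 1 replicate 3 and between -0.31 and 0.55 on the other arrays of that day.

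Itgb1, the beta chain of the main matrix receptors of muscle and fibroblasts, was the 1 gene among the 6 lower ones of smallest p that is not chiefly a liver product. It ranged from 0.24 through a median of 0.37 to 0.85 at day 1 and from -0.20 through 0.11 to 0.30 at day 28, with overlap. The difference was -0.34 ± 0.11 (limma, unadjusted p = 0.00459), its other probe gave -0.11, and without the 4 arrays that stood apart it was -0.18.

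Nr4a1, which encodes the orphan nuclear receptor Nur77, had the smallest p of the named genes with a positive difference. It ranged from -1.64 through a median of -0.61 to 0.14 at day 1 and from -0.27 through 0.69 to 1.77 at day 28. The vehicle hearts of day 3 ranged from -0.88 through a median of 0.45 to 1.94. All 6 day 28 hearts lay above the day 1 mean, yet the lowest of them lay below the highest day 1 heart. The difference was 1.59 ± 0.50 (limma, unadjusted p = 0.00334, adjusted p = 0.99993), and it lay between 1.40 and 1.81 when single arrays were left out. On the 3 slides that carried 1 heart of each day it was 2.07, 0.49 and 0.72.

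The other immediate early genes had differences of the same sign. Of 25 genes 23 were measured and all 23 were above 0, from 0.099 to 1.59 with a median of 0.35, where 50.86% of all genes were above 0. None passed, and 7 had an unadjusted p under 0.05 in the higher direction (0.682% of all genes). The transcription factor gene Atf3 ranged from -1.38 through a median of -0.84 to 0.27 at day 1 and from -0.68 through 0.20 to 2.44 at day 28, a difference of 1.27 ± 0.52 (limma, unadjusted p = 0.0197). Btg2, an antiproliferative gene, had 0.68 ± 0.28 and Jun, a subunit of AP-1, 0.45 ± 0.20 (limma, unadjusted p = 0.0228 and 0.0299). Fos, the partner of Jun in AP-1, had 1.33 ± 0.60 (limma, unadjusted p = 0.0329).

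The day 28 hearts differed among themselves in these genes. The immediate early score was 0.71, 0.67 and 0.43 in day 28 replicates 1, 3 and 6 and between -0.19 and 0.027 in the other 3, while all day 1 hearts lay between -0.48 and 0.13. Atf3 was at 2.44, 1.38 and 0.76 in the same hearts and between -0.68 and -0.35 in the rest. Without the 4 arrays that stood apart, day 28 replicate 6 among them, the list median was 0.43. In carbon black hearts the list had a median of 0.17 with 19 of 23 genes above 0. The immediate early score lay between -0.21 and 0.45 in the vehicle hearts of day 3.

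Promoters of Nr4a1, Atf3 and Btg2, the immediate early genes of smallest p, are shown because these genes had differences of one sign. Each is the RefSeq window of 250 bases before the annotated start on build GRCm38.p6, read 5′ to 3′ along the gene. The windows are chr15:101266596-101266845 on the plus strand for Nr4a1, chr1:191183334-191183583 on the minus strand for Atf3 and chr1:134079156-134079405 on the minus strand for Btg2. Capitals mark TGACG on either strand, part of the cyclic AMP response element bound by CREB and ATF factors.
Nr4a1: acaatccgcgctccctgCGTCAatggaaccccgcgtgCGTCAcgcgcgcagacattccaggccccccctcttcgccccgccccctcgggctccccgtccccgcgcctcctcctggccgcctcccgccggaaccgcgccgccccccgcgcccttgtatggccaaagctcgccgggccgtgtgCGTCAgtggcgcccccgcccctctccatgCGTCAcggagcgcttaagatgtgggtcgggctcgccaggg
Atf3: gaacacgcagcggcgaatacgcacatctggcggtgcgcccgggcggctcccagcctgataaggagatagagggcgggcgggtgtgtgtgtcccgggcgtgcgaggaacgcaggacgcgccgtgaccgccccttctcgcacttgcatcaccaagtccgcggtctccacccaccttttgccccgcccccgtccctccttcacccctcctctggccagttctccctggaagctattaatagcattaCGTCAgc
Btg2: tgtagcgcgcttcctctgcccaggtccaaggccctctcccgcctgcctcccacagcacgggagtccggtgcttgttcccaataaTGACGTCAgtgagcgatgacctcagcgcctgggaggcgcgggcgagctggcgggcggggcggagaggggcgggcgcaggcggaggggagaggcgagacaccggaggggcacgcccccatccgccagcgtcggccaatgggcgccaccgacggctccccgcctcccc
Nr4a1 held 4 matches, which begin 233, 213, 69 and 40 bases before the start. Atf3 held 1 match, 7 bases before the start, and in Btg2 the 2 matches, at 166 and 163, overlap each other on opposite strands. The window of Jun held no match. Of the 20 measured immediate early genes with a window 12 (60.0%) held the letters, against 17.8% of 32851 windows. A gene counted if any of its windows held them, whereas the second share is of single windows, so the shares are of unlike units. A match describes the sequence and does not show that a factor binds there.

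The other 5 named genes with a positive difference come from separate families. Tcl1b3, of the Tcl1 oncogene family, had 0.28 ± 0.094 and was well above background on 1 of 6 arrays at day 1 and 4 of 6 at day 28, so this difference lies near the limit of measurement. The survival kinase gene Pim2 had 0.23 ± 0.086, where its other probe gave 0.07. The planar polarity gene Vangl2 had 0.26 ± 0.097, with 3 of 6 arrays above background at day 1. Slc25a25, a mitochondrial ATP-Mg and phosphate carrier, ranged from -1.25 through a median of -0.90 to -0.62 at day 1 and from -0.78 through -0.46 to -0.17 at day 28, a difference of 0.47 ± 0.17. Its median was -0.21 in the vehicle hearts of day 3. Gvin1, a large interferon-inducible GTPase, had 0.47 ± 0.18 in vehicle and 0.60 in carbon black hearts. Its mean in vehicle hearts was 1.48 at day 1, 1.86 at day 3 and 1.95 at day 28. The unadjusted limma p of the 5 genes ran from 0.00506 to 0.012, and in each gene the groups overlapped.

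Genes that answer glucocorticoids, the stress hormones of the adrenal, had a median difference of 0.21, with 18 of 24 measured genes above 0 and none past the threshold. The phosphatase gene Dusp1, also induced as an immediate early gene, ranged from -0.036 through a median of 0.99 to 1.40 at day 1 and from 1.07 through 1.42 to 2.13 at day 28, a difference of 0.72 ± 0.28 (limma, unadjusted p = 0.0154). On the slides that held 1 heart of each day Dusp1 differed by -0.26, -0.021 and 0.53, so its sign varied. In carbon black hearts it differed by -0.083. Fkbp5, a co-chaperone of the glucocorticoid receptor, ranged from -1.11 to -0.71 at day 1 and from -0.50 to 0.52 at day 28, without overlap. In the vehicle hearts of day 3 Fkbp5 ranged from -1.13 to 1.14. Its difference was 0.72 ± 0.50 (limma, unadjusted p = 0.158), but its other probes gave 0.05 and -0.01, and it was well above background on 2 of 6 arrays at day 1. Ddit4, an inhibitor of mTOR signalling, had 0.77 ± 0.48 and the arrestin domain gene Arrdc2 0.31 ± 0.20, with 1 missing value in the fit of the latter. The list median was 0.12 without day 1 replicate 2, 0.12 without day 28 replicate 2 and 0.034 without the 4 arrays that stood apart.

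Transcripts of the clock output genes Dbp, Tef and Hlf, whose levels swing with the hour of the day, lay below the day 1 mean in 5 of the 6 day 28 hearts. Tef ranged from 0.42 through a median of 0.67 to 1.69 at day 1 and from -0.61 through -0.16 to 1.54 at day 28, a difference of -0.78 ± 0.28 (limma, unadjusted p = 0.00937). Its other probes gave -0.31 and 0.00. The day 28 value of 1.54 came from replicate 2, and the next highest was 0.19. Dbp had -0.79 ± 0.36, Hlf -0.51 ± 0.28 and Nr1d2, which encodes the repressor Rev-erb beta, -0.56 ± 0.24 (limma, unadjusted p = 0.037, 0.0841 and 0.0267). On the shared slides Dbp differed by 0.86, -2.30 and -1.37, so its sign varied between pairs of hearts. The 18 measured clock genes had a median of -0.10, with 13 below 0, and none passed. That median was -0.20 without day 28 replicate 2 and -0.040 without day 28 replicate 6. In carbon black hearts the clock median was 0.046, with 11 of 18 genes above 0. There Dbp, Hlf and Nr1d2 differed by 0.33, 0.24 and 0.19, and Tef by -0.31.

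B cell transcripts were high in 1 vehicle heart of day 28. The score was 3.39 in day 28 replicate 6 and between -0.31 and 0.092 in the other 5 hearts of that day, while day 1 lay between -0.23 and 0.068. Ms4a1, the B cell antigen CD20, was at 2.89 in that heart and between -3.15 and -1.89 in the others of its day. All 6 measured genes of B and plasma cells were above 0, with a median of 0.59, and none passed. Without replicate 6 the median was -0.064, Ms4a1 differed by -0.041 and Jchain, the joining chain of secreted antibodies, by -0.086. High B cell scores were not confined to that heart in the series. The highest was 0.94 in vehicle hearts of day 3, and 1.40, 2.19 and 1.96 in carbon black hearts of day 1, day 3 and day 28.

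T cell and antigen presentation transcripts were high in vehicle day 28 replicate 6 too. The T and NK cell score was 1.44 there, with the T cell receptor subunit gene Cd3d at 2.57. Of 10 T and NK genes 9 were above 0 with a median of 0.23, which was -0.035 without that heart. The score of class II antigen presentation, by which B cells, macrophages and dendritic cells show peptides to T cells, was 2.16 there and at most 0.074 in the other 5. Cd74, the invariant chain, ranged from -0.82 through a median of -0.0031 to 0.47 at day 1 and from 0.071 through 0.24 to 2.61 at day 28, a difference of 0.66 ± 0.42 (limma, unadjusted p = 0.127), which was 0.26 without replicate 6. All 8 class II genes were above 0 with a median of 0.45, 0 of 8 passed or had an unadjusted p under 0.05, and without replicate 6 the median was 0.048. The highest class II score was 0.45 in vehicle hearts of day 3, and 0.59, 1.25 and 1.33 in carbon black hearts of day 1, day 3 and day 28.

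Interferon response genes had small positive differences, and the heart of high lymphocyte transcripts had the highest score. Of 28 measured 26 were above 0, with a median of 0.20, none past the threshold and 4 at an unadjusted p under 0.05 in the higher direction (0.682% of all genes). The score was 0.48 in day 28 replicate 6 and at most 0.22 in the other 5 hearts of that day, and that heart also had the highest day 28 values of Psmb9, Oasl2, Igtp and Gbp3. Within the 3 slides that held 1 heart of each day the list median was 0.023, -0.029 and 0.60, the last from the slide of that heart. Psmb9, a subunit of the immunoproteasome, had 0.62 ± 0.28, Oasl2, of the oligoadenylate synthetase family, 0.45 ± 0.21, and the GTPase gene Igtp 0.47 ± 0.23. Gbp3, another interferon-induced GTPase, ranged from 0.93 through a median of 1.32 to 1.65 at day 1 and from 1.31 through 1.57 to 2.26 at day 28. It differed by 0.34 ± 0.16 in vehicle and by 0.63 in carbon black hearts, where the list median was 0.22. Without replicate 6 Psmb9 differed by 0.37, Gbp3 by 0.22 and the list by a median of 0.14 in vehicle hearts. The part of its lymphocyte transcripts in these values was not tested.

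Genes of fatty acid uptake and oxidation had small negative differences. Their median was -0.26, with 23 of 27 below 0 and 24 intervals within 2-fold. Echs1, the enoyl-CoA hydratase of beta-oxidation, ranged from 1.98 through a median of 2.43 to 2.85 at day 1 and from 1.71 through 1.95 to 2.34 at day 28, a difference of -0.41 ± 0.15 (limma, unadjusted p = 0.0102). Acadl, the long-chain acyl-CoA dehydrogenase, had -0.49 ± 0.21 (limma, unadjusted p = 0.028). Etfdh and Etfb, which pass electrons from beta-oxidation to the respiratory chain, had -0.45 ± 0.25 and -0.28 ± 0.16, and Etfdh differed by -0.25 without day 28 replicate 6. None of the 27 passed, and 2 had an unadjusted p under 0.05 in the lower direction (0.5% of all genes).

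The respiratory chain list had a median of -0.19, with 29 of 33 genes below 0 and all 33 intervals within 2-fold. The complex I subunits Ndufv1, Ndufa4 and Ndufv2 had -0.33 ± 0.17, -0.28 ± 0.16 and -0.30 ± 0.18, and the ATP synthase subunit gene Atp5d -0.25 ± 0.13. None passed or had an unadjusted p under 0.05. Day 28 replicate 6, the heart of high lymphocyte transcripts, had the lowest scores of both lists among the 12 hearts, -0.77 and -0.63. Without it the medians were -0.14 and -0.10, and without day 1 replicate 2 they were -0.14 and -0.12. Without day 28 replicate 2 they were -0.41 and -0.30. How far its lymphocyte transcripts bear on these scores was not tested.

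Transcripts of the contractile apparatus lay near 0. Of 23 sarcomere and calcium cycling genes 8 were above 0, with a median of -0.037 and 20 intervals within 2-fold. The median was -0.090 without day 1 replicate 5, -0.021 without day 1 replicate 2, -0.068 without day 28 replicate 2 and 0.021 without day 28 replicate 6. The M-band gene Myom1 had -0.26 ± 0.25, cardiac actin (Actc1) 0.25 ± 0.24, the ventricular light chain gene Myl2 -0.44 ± 0.50 and phospholamban (Pln), which restrains the calcium pump, -0.30 ± 0.41. Myl2 was at 2.87 in day 28 replicate 6 and at 4.69 or more in the other 5 hearts of that day, and without the 4 arrays that stood apart it differed by 0.027.

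**Figure D3:**
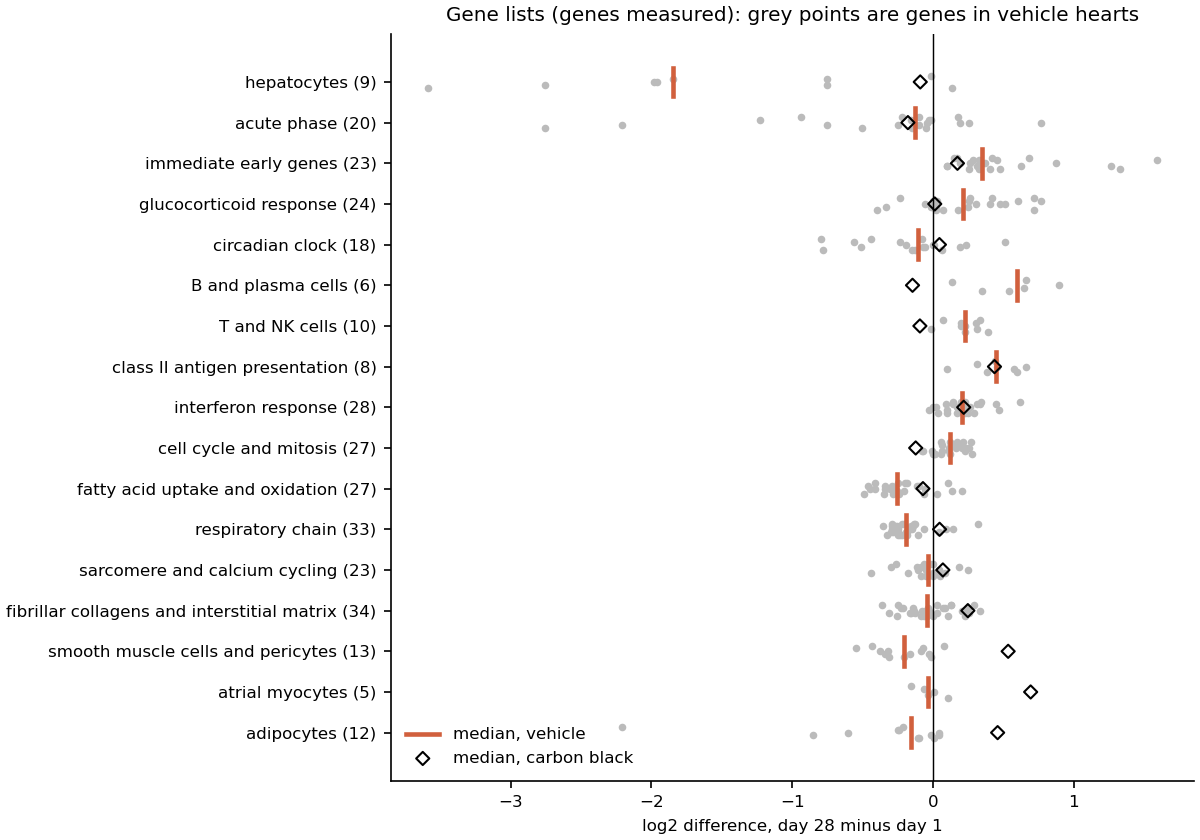
Each row is a gene list with its number of genes measured, each grey point is the log2 difference of 1 gene between day 28 and day 1 in vehicle hearts, the bar is the list median and the open diamond is the median of the same genes in carbon black hearts. The hepatocyte median of -1.85 lies far to the left of the other lists, whose medians lie between -0.26 and 0.59.

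Matrix genes, which fibroblasts express and which rise in fibrosis, were likewise near 0. Of 34 measured 15 were above 0, with a median of -0.039 and 27 intervals within 2-fold. Without replicate 2 or 5 of day 1 the median was -0.062 or 0.022, and without replicate 2 or 6 of day 28 it was 0.052 or 0.0035. Col6a2, a chain of collagen VI, had 0.26 ± 0.19, Col5a2, of collagen V, -0.24 ± 0.21, the membrane protease gene Mmp14 0.33 ± 0.29 and the crosslinking enzyme gene Lox -0.31 ± 0.28. None passed or had an unadjusted p under 0.05. The same list had a median of 0.25 in carbon black hearts.

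Smooth muscle and pericyte genes had a median of -0.21, with 12 of 13 below 0 and none at an unadjusted p under 0.05. Without single arrays that median ran from -0.44, without day 1 replicate 2, to -0.10, without day 28 replicate 6. It was -0.33 without day 1 replicate 5 and -0.12 without day 28 replicate 2. The pericyte proteoglycan gene Cspg4 had -0.43 ± 0.24, the G protein regulator Rgs5 -0.32 ± 0.42, myosin light chain kinase (Mylk) -0.31 ± 0.38 and calponin (Cnn1) -0.55 ± 0.92. With slide as a fixed block the list median was 0.029, and in carbon black hearts it was 0.53.

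Cell cycle genes had a median of 0.12, with 24 of 27 above 0 and all 27 intervals within 2-fold. Their score was 0.54 and 0.41 in day 28 replicates 5 and 6 and at most 0.059 in the other 4 hearts of that day. At day 1 it ranged from -0.14 to 0.35. The value of 0.35 came from day 1 replicate 5, which shared a slide with day 28 replicate 5. The list median was 0.032 without day 28 replicate 5 and 0.083 without day 28 replicate 6. In carbon black hearts it was -0.12, with 5 of 27 above 0. Pcna, the sliding clamp of DNA replication, had medians of -2.17 at day 1 and -1.97 at day 28 with overlap, a difference of 0.26 ± 0.10 (limma, unadjusted p = 0.0159). Mcm6 and Mcm4, of the replicative helicase, had 0.28 ± 0.22 and 0.18 ± 0.15, and Prc1, a spindle midzone protein, 0.27 ± 0.21. None passed, and the list median was -0.074 with slide as a fixed block.

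The widest variation among the 12 hearts did not follow the day. The first principal component took 35.3% of the variance, and day explained 0% of it. Its 50 leading genes included 10 markers of fat or atrial muscle, such as the fat droplet gene Cidec and the atrial calcium pump regulator Sln. Replicate 2 of each day, which shared a slide, had atrial scores of -3.86 and -3.56 and adipocyte scores of -2.51 and -2.47. The atrial light chain gene Myl4 was at -0.30 and -0.31 in these hearts and at 4.49 or more in the other 10.

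With 1 such heart in each group, the atrial genes had a median difference of -0.037 and wide errors. That median was -0.83 without day 1 replicate 2, 0.65 without day 28 replicate 2, 0.096 without day 1 replicate 5 and -0.13 without day 28 replicate 6. Myl4 differed by -0.037 ± 0.97, Myl7, the other atrial light chain gene, by 0.11 ± 0.92, Bmp10, an atrial growth factor gene, by -0.15 ± 0.90 and the natriuretic peptide gene Nppa by -0.060 ± 0.20. Adipocyte genes had a median of -0.16, with 9 of 12 below 0. Without day 1 replicate 2 it was -0.66, without day 28 replicate 2 0.080 and without day 28 replicate 6 -0.40. Ucp1, the uncoupling protein of brown fat, ranged from 0.21 through a median of 5.38 to 7.25 at day 1 and from 0.0088 through 2.92 to 5.71 at day 28. It was at 0.21 in 1 heart of day 1 and at 0.13, 0.0088 and 0.54 in 3 hearts of day 28, a difference of -2.21 ± 1.44 (limma, unadjusted p = 0.134). Elovl3, a fatty acid elongase of brown fat, had -0.85 ± 0.45, the lipid droplet gene Plin1 -0.60 ± 1.26 and the triglyceride synthesis gene Dgat2 -0.24 ± 0.20.

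The second component (18.5% of the variance) lay farthest in day 1 replicate 5, the heart with the smallest share of spots above background, and the third (14.9%) in day 28 replicate 6, with Ms4a1 and Cd79b among its leading genes. Day explained 3.9% and 10.8% of these. Without the 4 arrays that stood apart, 2 of each day, 0 genes passed (limma, 322 at an unadjusted p under 0.05). Alb then differed by -4.16 and Nr4a1 by 1.47. The part of section make-up in the other differences was not tested.

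**Figure D4:**
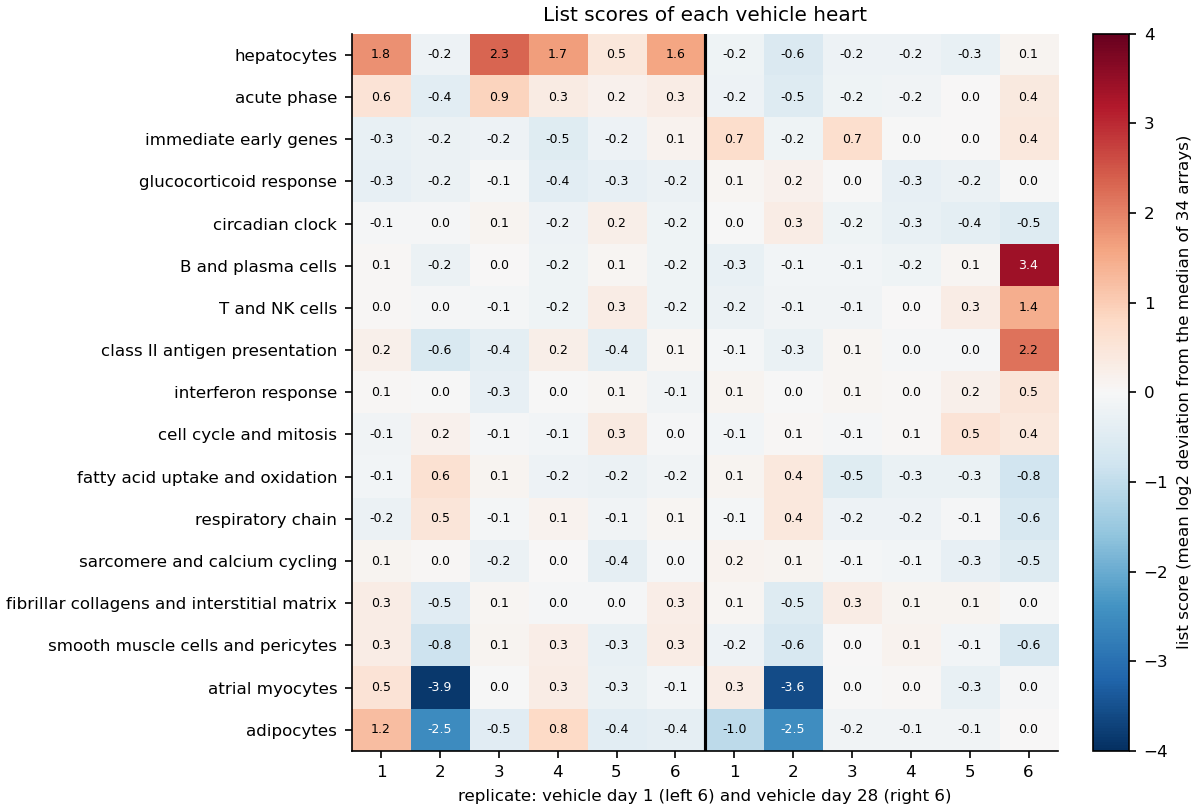
Colour and number give the score of each gene list, the mean log2 deviation of its genes from the median of all 34 arrays, for the 6 vehicle hearts of day 1 and the 6 of day 28. The hepatocyte row is high in 4 hearts of day 1, the B cell row reaches 3.39 in day 28 replicate 6, and the atrial row falls to -3.86 and -3.56 in replicate 2 of each day.

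Slides overlapped in part with the groups. Each group was spread over 6 slides, and 3 slides held 1 heart of each day. Within these the hepatocyte list had medians of -0.19, -0.51 and -1.70, and Alb differed by -1.75, -3.83 and -3.26. The immediate early list had 0.078, 0.23 and 0.30, and the fatty acid list -0.15, -0.15 and -0.69. The B cell list had 0.14, 0.0035 and 3.62, the last from the slide of day 28 replicate 6. With slide, scan day or array position as a fixed block, 0 genes passed (limma, with 430, 197 and 180 genes at an unadjusted p under 0.05).

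**Figure D5:**
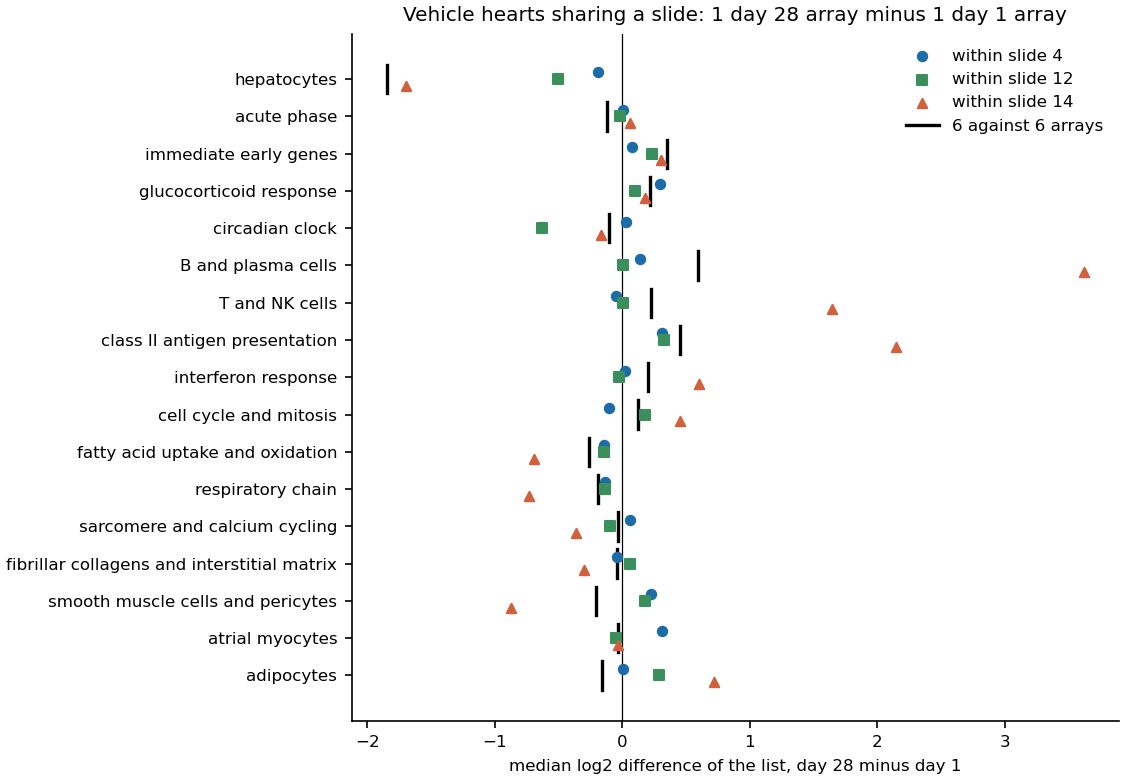
For each gene list the coloured symbols give the median log2 difference between 1 vehicle heart of day 28 and 1 of day 1 on the same slide, and the black bar gives the median of 6 against 6 arrays. The hepatocyte and fatty acid lists lie below 0 and the immediate early list above 0 on all 3 slides, and the B cell list is at 3.62 on slide 14.

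The same span of days was set beside that of the carbon black hearts, 6 at day 1 and 5 at day 28. There, too, 0 genes passed (0% of genes tested, limma, lowest adjusted p = 0.99679), with 851 genes (4.3%) at an unadjusted p under 0.05. The difference between the vehicle and the carbon black change was tested gene by gene, and 0 passed (0%, limma), with 276 genes (1.39%) at an unadjusted p under 0.05. Across the 19807 genes both sets of estimates had r = 0.12, a description over genes that are not independent and come from arrays sharing slides and a reference. Of the 12 genes named by smallest p, Pim2 had the smallest p of the difference, with 0.23 in vehicle and -0.11 in carbon black hearts (limma, unadjusted p = 0.0102), which did not pass after adjustment.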

How the data were processed

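The authors hybridised amplified RNA (200 ng a heart) of 34 mice on Agilent arrays, and per the file headers Feature Extraction 10.1.1.1 read the scans. The deposited scanner files give spot intensity (foreground, background and processed signals) and quality flags (other values, 0 or 1), per the file headers. The authors' value table holds log2 ratios, used as an alternative. Its values followed the scanner signals in direction and log2 scale after loess, and their exact normalisation is not given in the sources used here. Median signals were corrected with normexp (offset 50) and loess within arrays, leaving out control and outlier spots (0.0178% missing). A probe was kept if, in some group, a share of 0.5 or more of the arrays had it well above background in the heart channel (25259 of 41174 probes), and the probe with the brightest heart channel stood for a gene. Of 19807 genes, 12360 had a symbol through RefSeq accessions (GRCm38.p6 table) and 7447 an accession only. Group means of all 6 groups were fitted with limma 3.58.1 (R 4.3.3, 28 residual degrees of freedom), with Benjamini-Hochberg adjustment over all genes. Plots used matplotlib 3.10.9. The fit was tested on simulated data.

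Named were the 6 genes with a symbol of smallest p in each direction, as none passed, and up to 4 of smallest p in each of 17 described lists. The members and the 41 lists were chosen with earlier results of these data known. Alternatives covered background, normalisation, filters, probes, blocks for slide, scan day and position, and single arrays left out.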

Additional observations from a re-analysis of the deposited data

Results flagged for a closer look

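In each group of 6 hearts, the named genes and the list scores were searched for a heart whose distance from the nearest other heart was large against the range of the group (Dixon's criterion at 95%). Of 234 such checks 41 found one, 33 for genes and 8 for scores, where chance gives about 1 in 20 groups. Genes of a list are not independent, and the hits fell on 6 hearts. Values below are log2 ratios or scores.

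Day 28 replicate 6 was far above the other hearts of its day in Alb at 0.66, Fabp1 at 0.93 and Cd22 at 3.58. It was also far above them in Jchain at 0.85, Ms4a1 at 2.89, Klrd1 at 1.41, Cd3d at 2.57 and H2-DMa at 1.54. The same held for Cd74 at 2.61, H2-Oa at 3.02, H2-Aa at 4.3, Psmb9 at 0.92 and Mcm6 at -2.38. In Myl2, at 2.87, it was far below them. Its scores were high in class II antigen presentation at 2.16, T and NK cells at 1.44 and B and plasma cells at 3.39. Most of these genes belong to B cells, T cells or antigen presentation, while Myl2 is a ventricular muscle gene.

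Replicate 2 of day 1 was far above its group in Itgb1 at 0.85 and Etfb at 3.4. It was far below the group in Alb at 1.92, Cnn1 at -0.47, Bmp10 at 0.01, Myl7 at 2.08 and Myl4 at -0.3. Ucp1 at 0.21 was low too, as were the scores growth hormone and insulin-like growth factor signalling at -0.44 and atrial myocytes at -3.86. Replicate 2 of day 28, on the same slide, was far above its group in Fkbp5 at 0.52 and Tef at 1.54. It was far below that group in Cnn1 at -0.08, Bmp10 at 0.02, Myl7 at 2.84 and Myl4 at -0.31. Its scores of matrix at -0.53 and atrial myocytes at -3.56 were low too. Bmp10, Myl7, Myl4 and Cnn1 were low in both hearts.

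Day 1 replicate 3 was far above its group in Saa2 at 3.07 and far below it in Myl2 at 4.54. Day 1 replicate 5 was far below its group in Pcna at -2.62 and Actc1 at 3.18. Day 28 replicate 5 was far above its group in Lox at -2.3 and far below it in the score of endothelial cells at -0.55.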

How the results depend on the processing

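The count of genes past the threshold was 0 under every alternative tried but 1. When only the 12 arrays compared were fitted, 1 gene passed, Alb, with 289 genes at an unadjusted p under 0.05 (limma). The count at an unadjusted p under 0.05, 234 as reported, was 763 with no filter on dim probes (over 33266 genes), 463 from the processed signals of the scanner software, 82 with median centring in place of loess, 430 with slide as a fixed block and 120 among 12029 genes well above background on all arrays. Leaving out single arrays gave counts of 0 to 0 past the threshold and 156 to 398 at an unadjusted p under 0.05. Carbon black and the difference of the changes also stayed at 0. Of 76 named genes 59 kept their sign in all alternatives. Without the 4 arrays that stood apart, an alternative chosen after seeing the data, Jchain at -0.22, Cd3d at -0.0073, H2-Aa at -0.048, Mcm6 at -0.044, Actc1 at -0.072, Myl2 at 0.027, Mmp14 at -0.033 and Myl7 at -0.15 had the opposite sign. With slide as a fixed block, Mylk at 0.029, Cnn1 at 0.0067, Nppa at 0.13, Bmp10 at 0.11, Myl4 at 0.19 and Plin1 at 0.61 had the opposite sign. With the mean over the probes of a gene, Nppa at 0.029 had the opposite sign. As the mean of the differences within the 3 shared slides, Nppa at 0.18, Bmp10 at 0.061, Elovl3 at 0.016, Dgat2 at 0.068 and Plin1 at 0.67 had the opposite sign. With scan day as a fixed block, Bmp10 at 0.23 had the opposite sign. With array position as a fixed block, Myl7 at -0.10 had the opposite sign. Without the arrays of low atrial transcripts, Myl7 at -0.021 had the opposite sign. From the processed signals of the scanner software, Myl4 at 0.023 had the opposite sign. When single arrays were left out, Jchain between -0.086 and 0.73, Ms4a1 between -0.041 and 1.17, Cd3d between -0.041 and 0.52, Actc1 between -0.021 and 0.34, Cnn1 between -1.36 and 0.074, Nppa between -0.16 and 0.024, Bmp10 between -0.83 and 0.50, Myl7 between -0.56 and 0.65, Myl4 between -0.87 and 0.79 and Plin1 between -1.42 and 0.079 spanned 0. The cause was not tested. The hepatocyte median was -3.56 from the processed signals of the scanner software, -0.80 within the shared slides, and 0.13 where the filter left Trf alone. The medians of 31 of the 41 lists changed sign under some alternative. Scaling moved the median of all genes to at most 0.046. No paired analysis was possible because the labels give no replicate numbers that pair animals of both days. The 3 slides with 1 heart of each day were compared within slides, as given in the text, and slide was fitted as a block. Transcripts at background in 1 group have only a bound, and 6 arrays a group limit the precision.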

Other observations

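Further gene groups were measured in the same hearts, and none of their genes passed the adjusted threshold (limma). The range in parentheses is that of the median when single arrays were left out. Where it spans 0, leaving out a single heart could change the sign. Macrophage and monocyte genes had a median of 0.19 (14 of 18 above 0, 0.056 to 0.23), with a score of 0.58 in day 28 replicate 6 and at most 0.099 in the other hearts of that day. Without that heart their median was 0.056, and without day 1 replicate 2 or 5 it was 0.087 or 0.12. The median of chemokine and cytokine genes was 0.079 without day 28 replicate 6. Chemokine and cytokine genes had a median of 0.18 (20 of 26 above 0, 0.079 to 0.26), and epicardial and mesothelial genes a median of 0.23 (9 of 10 above 0, 0.066 to 0.58). Day 28 replicate 6 had the highest score of that day in both, 0.47 and 0.59, and the epicardial median was 0.13 without it. Cytosolic chaperones had a median of 0.086 (14 of 19 above 0, 0.019 to 0.13). Fibroblast genes had a median of -0.024 (6 of 14 above 0, -0.14 to 0.13), endothelial genes a median of -0.0050 (8 of 16 above 0, -0.076 to 0.057) and genes of the cytosolic ribosome a median of 0.049 (23 of 34 above 0, -0.051 to 0.11), where 34 of the latter had intervals within 2-fold.

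Fetal cardiac genes, which return in stressed hearts, had a median of -0.12 (2 of 11 above 0, -0.22 to -0.064), and ion channel and conduction genes a median of -0.064 (6 of 21 above 0, -0.10 to 0.011). Genes of fasting and of the lipid sensor PPAR-alpha had a median of -0.060 (7 of 16 above 0, -0.17 to 0.059), glycolysis genes a median of 0.0064 (11 of 21 above 0, -0.057 to 0.046) and antioxidant genes a median of 0.017 (10 of 20 above 0, -0.051 to 0.082). Markers of lung epithelium had a median of -0.057 (1 of 6 above 0, -0.076 to -0.045), and neutrophil markers a median of -0.071 (1 of 4 above 0, -0.12 to 0.010). The club and alveolar score lay between -0.20 and 0.12 in the hearts of day 28 and between -0.15 and 3.68 in the vehicle hearts of day 3.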
